A study of Mus musculus with 6 samples.

Results

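The genes followed here are 10 known markers of macrophages, measured in cultured lung mesenchymal stromal cells (LMSCs): Lyz2, Tyrobp, Fcer1g, Csf1r, Laptm5, Cd52, Adgre1, Cd68, Cd14 and Coro1a. They were taken by gene name, and all 10 were found among the 34745 genes of the expression table. The cultures came from the lungs of MMTV-PyMT mice on the FVB background, in which the MMTV promoter drives the polyoma middle T oncogene in mammary epithelium and mammary tumors spread to the lung. All 3 groups carried this transgene and the labels name no further treatment. A-LMSCs (labelled E-LMSCs) came from mice of 6 to 7 weeks at the adenoma stage, PM-LMSCs (labelled L-LMSCs) from mice of 9 to 10 weeks at the pre-metastatic stage, and M-LMSCs (labelled M-LMSCs) from mice of 13 to 14 weeks at the metastatic stage. These ages are those of the labels, and the study's methods give other ages for both earlier stages. Tumor stage and mouse age cannot be told apart in this design. Each stage had 2 RNA-seq libraries, made from cells at passage 3, after non-adherent cells had been washed off and CD45+ cells had been depleted with magnetic beads, so the cultures were meant to hold few leukocytes. The study's methods describe separate mice for each stage, but the labels do not tie a library to a mouse, and p-values measure only the spread between these libraries.

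Macrophages are phagocytes of the myeloid lineage that take up particles, digest them in lysosomes and sense ligands through surface receptors. Their growth and survival depend on colony-stimulating factor 1 acting on its receptor, the product of Csf1r, and the transcription factor PU.1, encoded by Spi1, is required for the lineage. In lung they occur in the alveoli and in the interstitium, next to the stromal cells studied here. Some of the 10 genes, such as Tyrobp, are largely restricted to blood-derived cells, whereas others, such as Cd68 and Cd14, can also be transcribed at a low level in fibroblasts.

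Expression was given as FPKM, fragments scaled to transcript length and to the mapped fragments of the library, so levels are per length and can be compared between genes. Depth was between 14770000 and 20840000 fragments per library, as estimated from the spacing of the low values. The stromal gene Col1a1 was at 761 FPKM or above in each library, while Ptprc, which encodes CD45, was between 0.0254 and 0.0987 FPKM. These chosen genes do not settle which cells the cultures held. Of 12 genes shared by leukocytes, 5, among them Ptprc, were under 1 FPKM in all libraries, but Arhgdib was at 32.2 to 60.9 FPKM. The mesothelial gene Upk1b was at 63.8 to 257 FPKM. A listed 0 does not show absence, since mt-Co2, a mitochondrial gene that every cell uses, was at 0 in all 6 libraries.

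All 10 genes were highest in M-LMSCs. Both M-LMSC libraries exceeded all 4 other libraries for 10 of 10 members, against 10.7% of the 21698 genes with a value above 0 in any library. The ratio of mean FPKM in M-LMSCs to that in A-LMSCs had a median of 2.59 over the 10 members and ran from 1.38 for Csf1r to 4.97 for Cd52, where the median of all genes tested was 1.03. Against PM-LMSCs the median ratio was 2.33, with a range from 1.55 for Csf1r to 3.93 for Adgre1, and the median of all genes tested was 0.999. The median ratio of PM-LMSCs to A-LMSCs was 1.05, and that of all genes tested was 1.01. Values of these 2 stages overlapped for 8 of the 10 members, and the share of all genes that overlapped was not computed. In these bulk libraries, fewer cells of a type and less RNA per cell cannot be told apart.

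**Figure D1:**
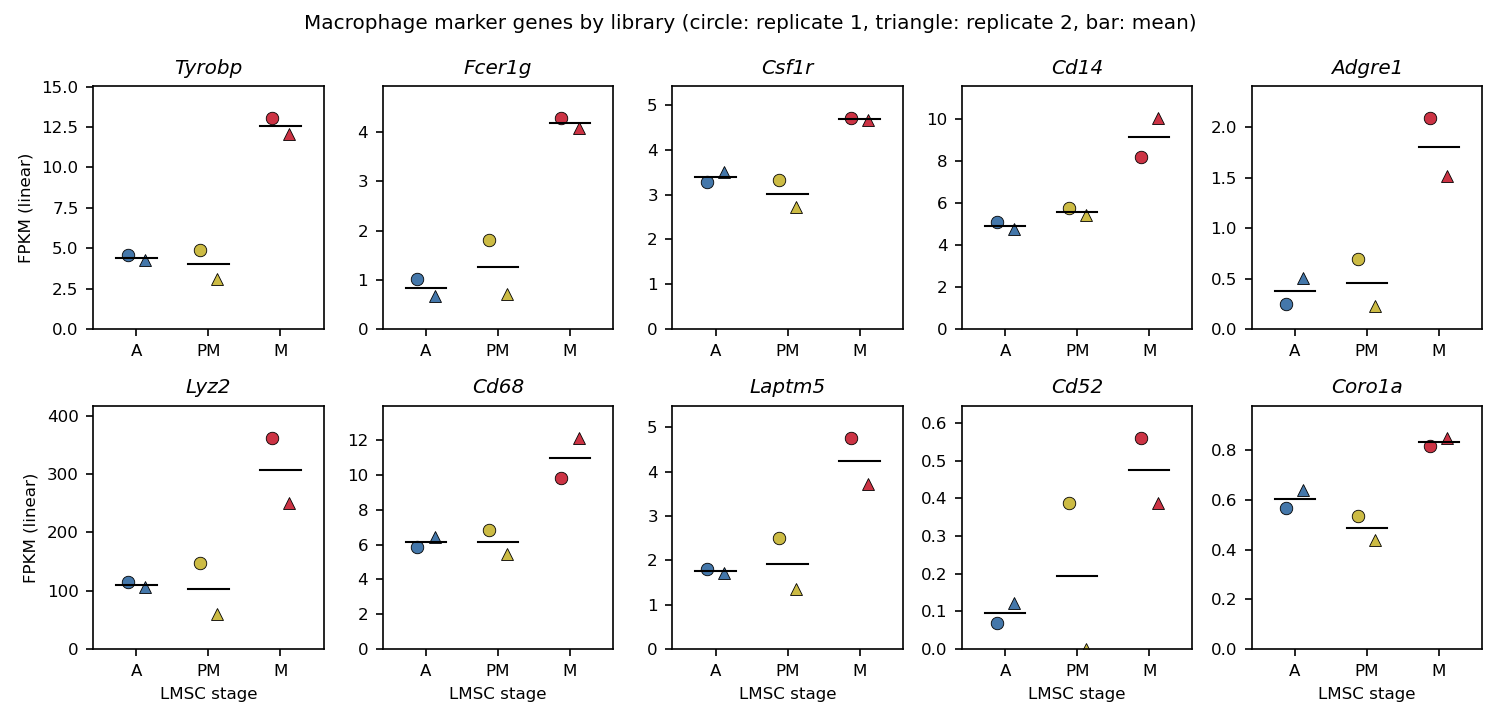
FPKM of the 10 members on linear axes from 0, 1 panel a gene, in A-LMSC, PM-LMSC and M-LMSC (circles for replicate 1, triangles for replicate 2, bars for the mean of the 2 libraries). Both M-LMSC points lie above the other 4 in each panel, by a thin margin for Cd52, and the PM-LMSC points of Lyz2 (147 and 60.6) lie on either side of the A-LMSC points.

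The differences were tested with limma on log2(FPKM + 1) over the 10279 genes that averaged 1 FPKM or more, which included 7 of the 10 members. Those 7 also averaged at least 1 FPKM over the A-LMSC and PM-LMSC libraries alone, so they did not enter the test through their level in M-LMSCs. With 1 mean per stage, 0 of 7 passed the adjusted threshold of 0.05 in M-LMSCs against A-LMSCs, where 0.0389% of all genes tested were called higher. At an unadjusted p under 0.05, 7 of 7 were higher, against 7.68% of all genes. When the replicate number was entered as a block, 6 of 7 passed in limma, all but Csf1r, against 2.28% of all genes called higher. The labels do not say what a replicate number marks, and the pairing was taken from these same data, so calls with the block depend on that choice. Against PM-LMSCs, 0 of 7 passed without the block, beside 0.0195% of all genes. The unadjusted p was under 0.05 for 7 of 7 in limma, against 4.48% of all genes, and with the block Tyrobp and Fcer1g passed (2 of 7), against 0.272%. PM-LMSCs and A-LMSCs differed by the adjusted limma test for 0 of 7 members without the block, beside 0.0389% of all genes, and for 0 of 7 with it, beside 0.292%. No member reached an unadjusted p under 0.05 in either direction in that comparison in the limma fit without the block (0 of 7). Of all 10279 genes 671 did in either direction, and 3.92% of all genes were higher. Both comparisons of M-LMSCs rest on the same 2 M-LMSC libraries.

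Promoter sequences were available from RefSeq (GRCm38.p6) for 5 of the 10 members, and 3 are shown because their genes had a high, a middle and a low ratio of M-LMSCs to A-LMSCs (4.96, 2.77 and 1.79): Fcer1g, Lyz2 and Cd68. Each is the part of the 250 bases before the start that lies outside the annotated gene, 5′ to 3′ on the gene's strand. Capitals mark the motifs GAGGAA and AGGAAGT, 2 forms of the purine-rich core bound by ETS factors such as PU.1, searched on both strands, which can share the letters AGGAA. Fcer1g is on the minus strand at chr1:171234366-171234599, Lyz2 on the minus strand at chr10:117282322-117282522 and Cd68 on the minus strand at chr11:69666171-69666420.
Fcer1g: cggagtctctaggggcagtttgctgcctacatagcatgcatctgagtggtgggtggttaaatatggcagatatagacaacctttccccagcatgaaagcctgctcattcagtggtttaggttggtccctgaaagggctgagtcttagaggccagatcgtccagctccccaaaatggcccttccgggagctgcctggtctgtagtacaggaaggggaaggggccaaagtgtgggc
Lyz2: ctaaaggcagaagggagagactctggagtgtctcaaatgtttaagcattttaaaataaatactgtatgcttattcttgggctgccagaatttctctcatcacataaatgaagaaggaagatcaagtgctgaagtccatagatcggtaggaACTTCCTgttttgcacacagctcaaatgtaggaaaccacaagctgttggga
Cd68: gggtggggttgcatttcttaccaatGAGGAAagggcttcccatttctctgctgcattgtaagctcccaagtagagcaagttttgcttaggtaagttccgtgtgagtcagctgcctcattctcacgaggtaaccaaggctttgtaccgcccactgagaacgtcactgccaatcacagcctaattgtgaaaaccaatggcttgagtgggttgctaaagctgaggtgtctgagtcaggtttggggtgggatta
In the Lyz2 stretch, ACTTCCT is the reverse complement of AGGAAGT. Over the full promoter windows, AGGAAGT was found in 1 of the 5 members (Lyz2) and in 7.8% of 27025 promoters, and GAGGAA in 2 of the 5 (Cd68 and Laptm5) and in 23.1%. These matches describe the letters only.

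Tyrobp and Fcer1g encode adaptor proteins whose cytoplasmic ITAM motif passes signals from activating receptors to the kinase SYK. Tyrobp (DAP12; GRCm38 chr7:30413760-30417585, plus strand) had 4.59 and 4.25 FPKM in A-LMSCs, 4.92 and 3.12 in PM-LMSCs, and 13.1 and 12.1 in M-LMSCs. The M-LMSC libraries were close to each other and far above the rest, and the PM-LMSC libraries lay on either side of the A-LMSC pair. Means were 4.42 ± 0.239, 4.02 ± 1.27 and 12.6 ± 0.707 FPKM (SD, n = 2 each). In M-LMSCs Tyrobp exceeded its A-LMSC level by 1.32 on the log2(FPKM + 1) scale (SE 0.18, limma adjusted p = 0.0788, and 0.0157 with the block) and its PM-LMSC level by 1.46 (adjusted p = 0.0961, and 0.0225 with the block).

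Fcer1g, the common gamma chain of Fc receptors (GRCm38 chr1:171229572-171234365, minus strand), had 1.02 and 0.676 FPKM in A-LMSCs, 1.81 and 0.706 in PM-LMSCs, and 4.29 and 4.09 in M-LMSCs. PM-LMSC replicate 1 was above both A-LMSC libraries and replicate 2 fell between them, and no M-LMSC value overlapped another stage. Of the tested members it had the highest ratio to A-LMSCs, 4.96, from a mean of 0.846 ± 0.240 to 4.19 ± 0.142 FPKM (SD, n = 2 each). The log2 difference was 1.498 (SE 0.24, limma adjusted p = 0.0932, and 0.0157 with the block), and that from PM-LMSCs was 1.25 (adjusted p = 0.217, and 0.0472 with the block). The A-LMSC values of this short transcript rest on about 18.5 and 10.4 fragments.

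Among the surface receptors, Csf1r differed least between stages. This receptor tyrosine kinase for CSF1 and IL-34 had 3.29 and 3.51 FPKM in A-LMSCs, 3.32 and 2.72 in PM-LMSCs, and 4.71 and 4.66 in M-LMSCs. The M-LMSC values were nearly equal and above the other 4, but by a smaller margin than for the adaptors. Means were 3.40 ± 0.155 FPKM in A-LMSCs and 4.68 ± 0.0388 FPKM in M-LMSCs (SD, n = 2 each), a ratio of 1.38, and the log2 difference of 0.37 (SE 0.13) did not pass the limma test without the block (adjusted p = 0.262) or with it (0.122). The exons of Csf1r share 873 bases with Hmgxb3 on the opposite strand, and whether counting used strand is not given in the sources used here. Hmgxb3 was at 14.2 to 18.5 FPKM with a ratio of 0.846 between M-LMSCs and A-LMSCs, and the part of its reads in the Csf1r value was not tested.

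Cd14, the lipopolysaccharide co-receptor of TLR4, had 5.13 and 4.76 FPKM in A-LMSCs, 5.77 and 5.45 in PM-LMSCs, and 8.23 and 10.1 in M-LMSCs. It was 1 of 2 members for which PM-LMSCs did not overlap A-LMSCs, with both PM-LMSC values slightly above. The ratio of M-LMSCs to A-LMSCs was 1.85, from 4.94 ± 0.258 to 9.16 ± 1.31 FPKM (SD, n = 2 each), and the log2 difference of 0.77 (SE 0.13) had a limma adjusted p of 0.0981, and of 0.0275 with the block. From PM-LMSCs the log2 difference was 0.61 (limma adjusted p = 0.269, and 0.105 with the block).

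Adgre1 encodes F4/80, the adhesion G protein-coupled receptor long used to identify mouse macrophages (GRCm38 chr17:57358691-57483527, plus strand). It had 0.252 and 0.506 FPKM in A-LMSCs, 0.694 and 0.227 in PM-LMSCs, and 2.09 and 1.52 in M-LMSCs. Both M-LMSC libraries were well above the rest, and the PM-LMSC pair, which differed by a ratio of 3.06, enclosed the A-LMSC pair. Its mean over the 6 libraries was under 1 FPKM, so it was tested only in the fit without the filter, where the log2 difference of 1.02 from A-LMSCs (SE 0.21) had a limma adjusted p of 0.220.

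Lyz2 encodes lysozyme M, a secreted antibacterial enzyme, and was the most abundant member. It had 115 and 106 FPKM in A-LMSCs, 147 and 60.6 in PM-LMSCs, and 362 and 250 in M-LMSCs. The 2 M-LMSC libraries were the highest, but differed from each other by a ratio of 1.45, and the PM-LMSC pair again enclosed the A-LMSC pair. Means were 110.6 ± 6.20, 103.6 ± 60.9 and 306.0 ± 79.6 FPKM (SD, n = 2 each), a ratio of 2.77 between M-LMSCs and A-LMSCs. The log2 difference was 1.44 (SE 0.39, limma adjusted p = 0.189, and 0.0288 with the block) from A-LMSCs and 1.66 from PM-LMSCs (adjusted p = 0.304, and 0.0523 with the block). Lyz1 shares 1264 bases with Lyz2 at 95.8% identity, but was at most 0.107 FPKM, and the summed value of both gave the same ratio of 2.77. Lyz2 (GRCm38 chr10:117277331-117282321, minus strand) alone made up most of the members' summed FPKM, which was 129 to 138 in A-LMSCs, 80.0 to 173 in PM-LMSCs and 299 to 411 in M-LMSCs.

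Cd68 and Laptm5 encode lysosomal membrane proteins, of which Laptm5 is typical of hematopoietic cells. Cd68 (GRCm38 chr11:69664213-69666153, minus strand) had 5.85 and 6.44 FPKM in A-LMSCs, 6.84 and 5.48 in PM-LMSCs, and 9.83 and 12.2 in M-LMSCs. Its A-LMSC and PM-LMSC means were nearly the same, 6.14 ± 0.419 and 6.16 ± 0.962 FPKM (SD, n = 2 each), and the M-LMSC values were above both. The ratio of M-LMSCs to A-LMSCs was 1.79 (log2 difference 0.74, SE 0.15, limma adjusted p = 0.118, and 0.0456 with the block). Laptm5 (GRCm38 chr4:130913125-130936141, plus strand) had 1.81 and 1.72 FPKM in A-LMSCs, 2.50 and 1.34 in PM-LMSCs, and 4.77 and 3.73 in M-LMSCs. The PM-LMSC pair enclosed the A-LMSC pair, and the ratio of M-LMSCs to A-LMSCs was 2.41 (log2 difference 0.92, SE 0.21, limma adjusted p = 0.134, and 0.0250 with the block).

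Cd52 and Coro1a were the least abundant members with Adgre1. Cd52, which encodes a small glycoprotein anchored on leukocytes (GRCm38 chr4:134082448-134095082, minus strand), had 0.0685 and 0.122 FPKM in A-LMSCs, 0.387 and 0 in PM-LMSCs, and 0.561 and 0.387 in M-LMSCs. These values correspond to about 11.0 fragments at most, and M-LMSC replicate 2 was barely above PM-LMSC replicate 1. Coro1a, an actin-binding coronin of hematopoietic cells (GRCm38 chr7:126699773-126707787, minus strand), had 0.565 and 0.640 FPKM in A-LMSCs, 0.536 and 0.438 in PM-LMSCs, and 0.817 and 0.850 in M-LMSCs. It was the other member with no overlap between PM-LMSCs and A-LMSCs, with both PM-LMSC values lower. In the limma fit without the filter, the log2 differences from A-LMSCs were 0.43 for Cd52 (adjusted p = 0.428) and 0.19 for Coro1a (adjusted p = 0.460). Both genes share exon bases with a gene on the opposite strand, 172 bases between Cd52 and Crybg2 and 26 between Coro1a and Bola2.

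Whether the members moved by 1 common ratio was asked next, and their ratios were unequal. The highest ratio of M-LMSCs to A-LMSCs, 4.97, was 3.60 times the lowest, 1.38. That highest ratio, of Cd52, rests on about 1.70 and 2.55 fragments in A-LMSCs, and the next, of Fcer1g, was 4.96. Adgre1 followed with 4.76, and Laptm5, Lyz2 and Tyrobp had ratios between 2.41 and 2.84. Cd14, Cd68, Coro1a and Csf1r had ratios of 1.85, 1.79, 1.38 and 1.38. No intervals were computed for these ratios themselves. The limma intervals are for differences of log2(FPKM + 1), which understate the change of low genes, so they do not settle whether the ratios were equal. On that scale, the 95% intervals of 5 of the 7 tested members held the members' median of 0.92. Those of Fcer1g (0.93 to 2.07) and Csf1r (0.07 to 0.67) did not. Of 21 pairs of members, 2 had intervals that did not overlap, Csf1r with Tyrobp (0.89 to 1.76) and Csf1r with Fcer1g. With the replicate block 5 of 21 pairs did not overlap, those 2 and Csf1r with Lyz2, Cd68 with Fcer1g, and Cd14 with Fcer1g, and 4 of the 7 intervals held the median.

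**Figure D2:**
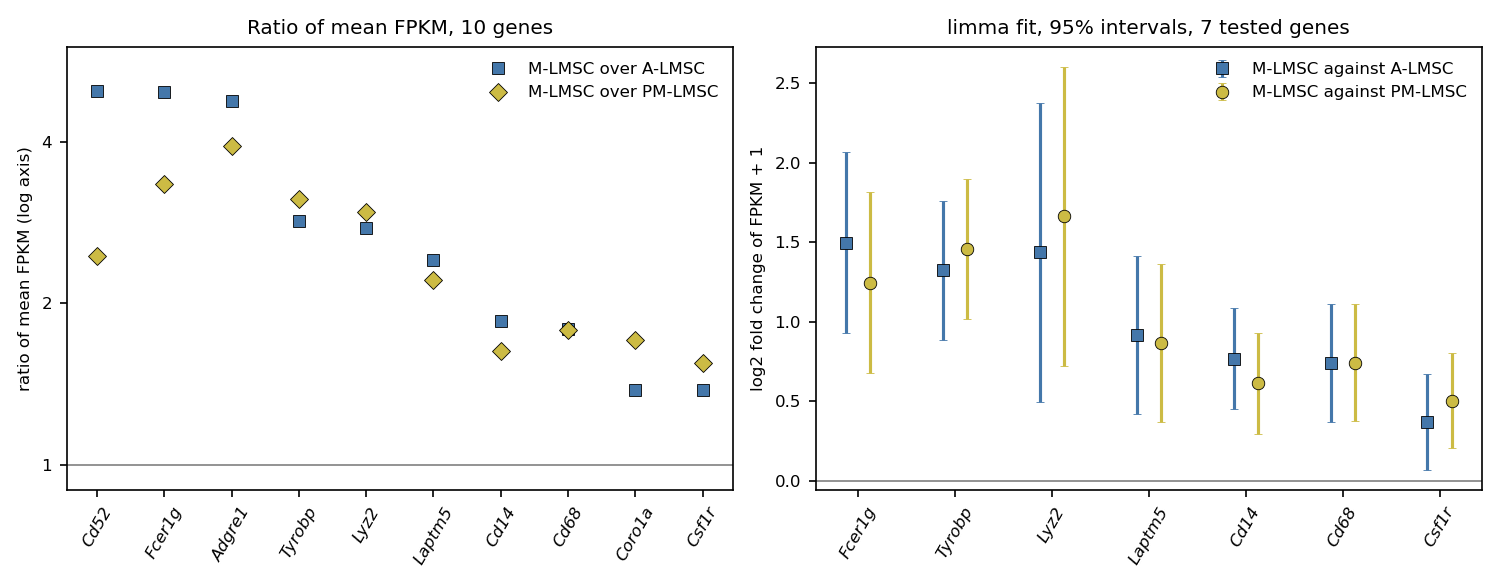
Left, ratio of mean FPKM (log axis) of the 10 members for M-LMSC over A-LMSC and M-LMSC over PM-LMSC; right, limma log2 fold change of FPKM + 1 with 95% intervals for the 7 tested members. The ratios over A-LMSC run from 1.38 for Csf1r to 4.97 for Cd52, and the interval of Csf1r (0.07 to 0.67) lies below those of Tyrobp and Fcer1g.

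Against PM-LMSCs the spread of ratios was narrower, with the highest 2.53 times the lowest, but it turned on PM-LMSC replicate 1. Without that library the median ratio was 3.16 and the highest, that of Adgre1, was 7.97 in place of 3.93, over 9 members, since Cd52 was listed at 0 in PM-LMSC replicate 2. Without PM-LMSC replicate 2 the median was 1.65 and the highest 2.604. The intervals of Tyrobp and Csf1r, and those of Tyrobp and Cd14, did not overlap in this comparison, and 5 of 7 intervals held the members' median log2 difference of 0.87. With the block 6 pairs did not overlap and 4 of 7 intervals held the median.

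Setting each member against Tyrobp in the same library shows the unequal ratios directly. Lyz2 was 25.03 and 24.96 times Tyrobp in A-LMSCs, 29.8 and 19.4 times in PM-LMSCs, and 27.7 and 20.7 times in M-LMSCs. The M-LMSC values lay within the range of the PM-LMSC values, so Lyz2 showed no separation of the stages relative to Tyrobp. Csf1r relative to Tyrobp was 0.716 and 0.825 in A-LMSCs, 0.676 and 0.869 in PM-LMSCs, and 0.360 and 0.386 in M-LMSCs. Cd14 relative to Tyrobp was 1.12 in both A-LMSC libraries, 1.17 and 1.74 in PM-LMSCs, and 0.629 and 0.835 in M-LMSCs. Both genes, together with Cd68, Coro1a and Laptm5, had a ratio to Tyrobp in both M-LMSC libraries below that of all 4 others, which made 5 of the 9 members other than Tyrobp. By the same measure 97.5% of all genes tested were lower relative to Tyrobp, and Lyz2, Fcer1g, Adgre1 and Cd52 were the 4 members without this pattern. Fcer1g relative to Tyrobp was 0.221 and 0.159 in A-LMSCs, 0.369 and 0.226 in PM-LMSCs, and 0.328 and 0.339 in M-LMSCs.

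**Figure D3:**
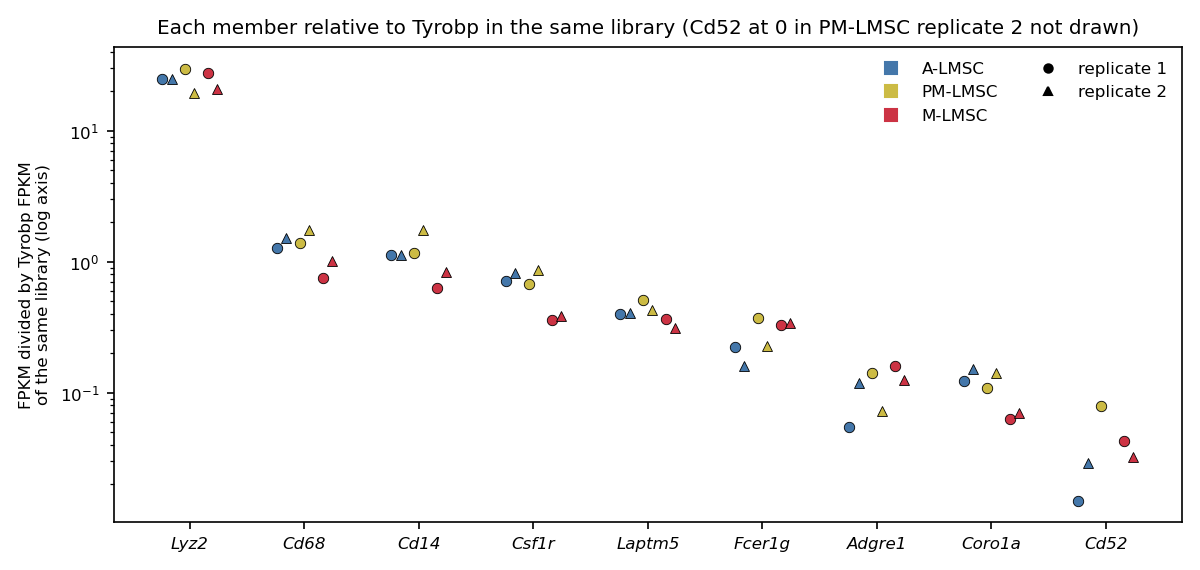
FPKM of the 9 other members divided by that of Tyrobp in the same library (log axis), with 1 point per library (circles for replicate 1, triangles for replicate 2) and Cd52 in PM-LMSC replicate 2 not drawn because it was at 0. Csf1r, Cd68, Cd14, Coro1a and Laptm5 have both M-LMSC points below the other 4, whereas the M-LMSC points of Lyz2 (27.7 and 20.7) lie among the rest.

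The PM-LMSC libraries differed from each other in the same direction for all members. Replicate 1 was above replicate 2 for 10 of 10 members. Of 10266 genes tested with values above 0 in both libraries, 5613 had the same direction. The members' ratio ran from 1.06 for Cd14 to 3.06 for Adgre1, with a median of 1.57 over the 9 members with 2 values above 0. All genes tested had a median of 1.03. Replicate 2 was the lowest of the 6 libraries for 8 of 10 members, against 13.5% of genes with a value above 0. The gap between the PM-LMSC replicates came to 9.08% of the difference between M-LMSC and PM-LMSC means for Cd14, 21.0% for Tyrobp, 42.5% for Lyz2 and 138% for Cd52. PM-LMSC replicate 2 also had Cebpb, a transcription factor gene, at 10.1 FPKM, where the other 5 libraries had 99.6 to 165, and the part of this in the members' values was not tested.

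Other genes of mononuclear phagocytes were counted by list. Of 17, 12 were highest in both M-LMSC libraries, against 10.7% of genes with a value above 0. The 8 tested had a median log2 difference of 1.40 between M-LMSCs and A-LMSCs, beside 0.92 for the members. None of the 8 passed limma's adjusted test without the block (0 of 8), beside 0.0389% of genes tested called higher. With it 6 rose, against 2.28% of genes tested: C1qb, C1qc, Ctss, Msr1, Mpeg1 and Pld4. Msr1 averaged under 1 FPKM over the A-LMSC and PM-LMSC libraries and had 2.90 and 1.91 in M-LMSCs. It entered the test, and the median above, through its level in M-LMSCs. C1qb, a chain of complement C1q, had 1.54 and 4.41 FPKM in A-LMSCs, 2.55 and 1.16 in PM-LMSCs, and 11.8 and 12.1 in M-LMSCs (limma adjusted p = 0.118, and 0.0459 with the block). Ctss, the lysosomal protease cathepsin S, had 4.004 and 3.85, 5.27 and 1.72, and 14.6 and 8.49 FPKM in the same order (limma adjusted p = 0.229, and 0.0394 with the block). Both genes repeated the low PM-LMSC replicate 2 of the members. The integrin gene Itgam, which encodes CD11b, had 2 identifiers in the table, whose sum was 0.461 and 0.511 FPKM in A-LMSCs, 0.514 and 0.238 in PM-LMSCs, and 2.45 and 1.46 in M-LMSCs.

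Markers of alveolar macrophages were low, with 5 of 6 under 1 FPKM in all libraries and only 1, Ear2, tested. Both M-LMSC libraries were highest for 0 of 6, against 10.7% of genes with a value above 0, and Chil3 and Ear2 were lowest there. With so few genes, this count cannot be told apart from that share. Ear2, a secreted ribonuclease gene, had 3.74 and 1.59 FPKM in A-LMSCs, 2.64 and 1.05 in PM-LMSCs, and 1.01 and 0.754 in M-LMSCs. It fell by 0.90 on the log2 scale from A-LMSCs with the block (limma adjusted p = 0.0436) and did not pass without it (0.312). Chil3, a chitinase-like protein gene, had 0.879 and 0.634 FPKM in A-LMSCs and 0.0874 and 0.0291 in M-LMSCs, below the filter.

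**Figure D4:**
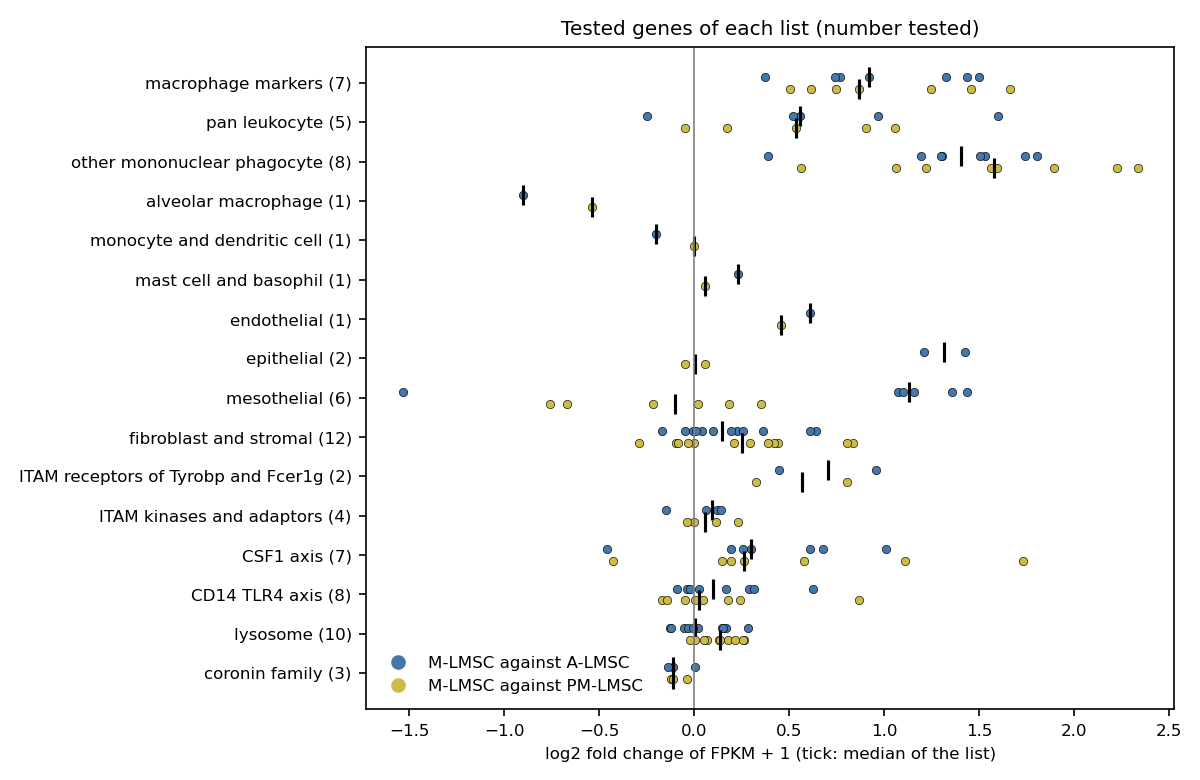
Log2 fold change of FPKM + 1 of each tested gene, by list, for M-LMSC against A-LMSC and M-LMSC against PM-LMSC, with a tick at each list's median and the number tested in brackets. Against A-LMSC the members (median 0.92) and the other mononuclear phagocyte genes (median 1.40) lie above 0, and the lysosomal genes lie around it (median 0.0057).

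Receptors that pair with Tyrobp or Fcer1g were low. Of 11, 5 were highest in both M-LMSC libraries (Trem1, Trem2, Fcgr1, Fcgr3 and Clec4e), against 10.7% of genes with a value above 0. Only 2 of the 11 were tested, of which 0 passed limma's adjusted test with or without the block. Trem2, a lipid receptor that signals through Tyrobp, had 0.463 and 0.691 FPKM in A-LMSCs, 0.597 and 0.370 in PM-LMSCs, and 1.36 and 1.58 in M-LMSCs. Downstream, 4 of 10 ITAM kinases and adaptors were tested, with a median log2 difference of 0.091 and 0 calls by limma in either fit. Syk itself had 1.74 and 1.47 FPKM in A-LMSCs and 1.501 and 1.21 in M-LMSCs, whereas the hematopoietic Btk, Lcp2, Vav1, Inpp5d and Ptpn6 were each highest in both M-LMSC libraries, all under 1 FPKM.

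In the CSF1 axis, the ligand Csf1 was abundant, while the lineage factor gene Spi1 was low. Csf1 had 362 and 344 FPKM in A-LMSCs, 348 and 341 in PM-LMSCs, and 378 and 174 in M-LMSCs, so the M-LMSC pair enclosed the other 4 values. The transcription factor genes Spi1, Irf8, Maf and Runx1 each had their top values in both M-LMSC libraries. Spi1 had 0.842 and 0.501 FPKM in A-LMSCs, 0.676 and 0.362 in PM-LMSCs, and 1.4997 and 1.42 in M-LMSCs.

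Genes that share a compartment or family with members, but not their cell type, had median differences near 0. All 10 lysosomal genes were tested, and their median log2 difference between M-LMSCs and A-LMSCs was 0.0057, with 0 calls by limma in either fit. Lamp1, at 589 to 753 FPKM, was the most abundant of them. In the coronin family, Coro1b and Coro1c, at 54.4 to 71.7 and 30.9 to 35.9 FPKM, far exceeded Coro1a, and the 3 tested genes had a median log2 difference of -0.11. For Cd14, the partners of the TLR4 axis had a median of 0.098 over 8 tested genes, with 0 calls by limma in either fit, and Tlr4 had 1.91 and 1.38 FPKM in A-LMSCs and 2.82 and 1.80 in M-LMSCs.

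Pan-leukocyte genes were mixed. Of 12, 8 were highest in both M-LMSC libraries, against 10.7% of genes with a value above 0. With the block 2 of the 5 tested rose, Cd53 and Lcp1, against 2.28% of genes tested called higher. Lcp1 had 0.667 and 0.807 FPKM in A-LMSCs, 1.04 and 0.612 in PM-LMSCs, and 2.82 and 2.02 in M-LMSCs. It averaged under 1 FPKM over the A-LMSC and PM-LMSC libraries, so it entered the test through its level in M-LMSCs. Cd53, a tetraspanin of leukocytes, had 4.82 and 3.903 FPKM in A-LMSCs, 9.13 and 4.99 in PM-LMSCs, and 19.4 and 11.8 in M-LMSCs (limma adjusted p = 0.113, and 0.0119 with the block). Arhgdib had 42.6 and 32.2 FPKM in A-LMSCs, 52.8 and 60.9 in PM-LMSCs, and 51.1 and 58.9 in M-LMSCs, so all 4 later libraries were above both A-LMSC libraries. Lsp1 had 6.42 and 7.07, 4.31 and 5.32, and 4.88 and 6.24 FPKM, with all 4 below both. Neither passed limma's adjusted test of M-LMSCs against A-LMSCs in either fit. Summed over the list, FPKM was 47.3 to 58.3 in A-LMSCs, 72.1 to 74.2 in PM-LMSCs and 85.6 to 86.4 in M-LMSCs. Arhgdib alone made up most of this sum in every library, so the step from A-LMSCs to PM-LMSCs mainly repeats that gene.

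Many defining markers of other blood cells were at 0. S100a9, Ly6g, Retnlg and Ngp of neutrophils, Cd3g and Klrb1c of T and NK cells, Ighm of B cells, Fcer1a of mast cells and basophils, Ly6c2 and Cd209a of monocytes and dendritic cells, and Hbb-bs and Gp9 of red cells and platelets were listed at 0 in all 6 libraries. The 10 neutrophil genes together summed to 0.447 to 0.832 FPKM in M-LMSCs and 0.613 to 0.664 in A-LMSCs, and 2 of 10 were highest in both M-LMSC libraries. The 9 T and NK cell genes summed to at most 1.51 FPKM and the 6 B cell genes to at most 0.186, with 1 of 9 and 0 of 6 highest in both M-LMSC libraries. Over all genes with a value above 0, 10.7% were highest in both M-LMSC libraries. With so few genes, the counts of these blood cell lists cannot be told apart from that share. Of the 8 mast cell and basophil genes 1 was highest in M-LMSCs, of the 6 red cell and platelet genes 1 (Pf4), and of the 7 monocyte and dendritic cell genes 1 (Zbtb46). Plac8 of that last list was abundant, at 43.6 to 52.0 FPKM in every library; it carried the list's sums of 51.4 to 52.4 FPKM in A-LMSCs, 44.1 to 46.4 in PM-LMSCs and 44.4 to 46.1 in M-LMSCs and did not pass the test of M-LMSCs against A-LMSCs in either fit. Fcer1g, which mast cells and basophils also use, was accompanied by few of their other markers, Gata2 at 3.30 to 5.98 FPKM being the most abundant.

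Markers of non-blood cells also differed between stages. The M-LMSC libraries were the top pair for 6 of 10 epithelial genes, against 10.7% of genes with a value above 0. This list summed to 3.72 to 7.07 FPKM in A-LMSCs, 10.8 to 18.7 in PM-LMSCs and 11.5 to 24.6 in M-LMSCs. Epcam was at 0 in the 4 earlier libraries and at 0.326 and 0.473 FPKM in M-LMSCs. Mesothelial genes summed to 119 to 177, 291 to 407 and 195 to 486 FPKM. With the block, 4 of the 6 rose in M-LMSCs against A-LMSCs, beside 2.28% of genes tested called higher. Krt19 fell with and without the block, where 169 and 3 of 10279 genes were called lower. Krt19, a keratin, changed by -1.53 on the log2 scale (limma adjusted p = 0.0395). The mesothelial sum was above A-LMSCs in both PM-LMSC libraries, and so were Krt8 and Krt18, simple-epithelium keratins that carried most of the epithelial sum. Krt8 had 0.824 and 2.41 FPKM in A-LMSCs, 3.94 and 8.68 in PM-LMSCs, and 2.91 and 10.4 in M-LMSCs. With the block, Krt8 and Krt18 rose from A-LMSCs to PM-LMSCs (limma adjusted p = 0.0369 and 0.0372), and so did the mesothelial Lrrn4 (0.0417). That call was made for 0.292% of genes tested in either direction. Krt8 and Krt18 also rose with the block in M-LMSCs against A-LMSCs (limma adjusted p = 0.0171 and 0.0163). None of these calls was made without the block. The mesothelial sum, Krt8 and Krt18 were higher in PM-LMSC replicate 2 than in replicate 1. Of 7 endothelial genes 2 had their top pair in M-LMSCs, beside 10.7% of genes with a value above 0. Kdr rose in M-LMSCs against A-LMSCs with the block (limma adjusted p = 0.0285), while 0 of 12 fibroblast and stromal genes passed limma's adjusted test in either fit. The part of these shifts in the members' values was not tested.

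Likeness to the members was measured by correlation. Among 595 tested genes with a range of at least 1 on the log2 scale, the highest Pearson correlations with the mean of the members over the 6 libraries were those of Nckap1l (0.995), C3ar1 (0.990), Fermt3 (0.990), Tgfbi (0.990) and Mpeg1 (0.987). The 6 points share stages and libraries, so these values only describe likeness. Nckap1l, C3ar1, Fermt3 and Tgfbi each averaged under 1 FPKM over the A-LMSC and PM-LMSC libraries, with no value above 1.13. In M-LMSCs they were at 2.03 FPKM or above, so they met the filter through that stage. The filter and the needed range thus favored genes high in M-LMSCs, as the members were. C3ar1, the receptor gene for complement C3a, had 0.546 and 0.518 FPKM in A-LMSCs, 0.959 and 0.468 in PM-LMSCs, and 2.30 and 2.14 in M-LMSCs. Mpeg1, which encodes the pore-forming protein perforin-2 of phagocytes, was at 3.62 and 3.53, 5.37 and 1.90, and 14.4 and 9.94 FPKM.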

How the data were processed

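RNA was sequenced from cultured LMSCs, 2 libraries for each of 3 stages. The authors deposited FPKM values for 34745 genes. The submitters' processing notes name TopHat2 2.0.9 and the mm10 build, and the counting tool, the annotation and the use of strand are not given in the sources used here. All 6 columns of values were matched to samples by their labels, and for 57 gene names with more than 1 identifier the first was used. The study describes 3 mice per stage, and any library beyond these was not used here.

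The 10 members and the other 19 gene lists were chosen with earlier results of these data known, so they are no independent evidence. Genes averaging 1 FPKM or more were fitted as log2(FPKM + 1) in R 4.3.3 with limma 3.58.1 (1 mean per stage, eBayes with trend), and p-values were adjusted by Benjamini-Hochberg over 10279 genes, with a threshold of 0.05. Differences on this scale understate the change of low genes. Ratios of mean FPKM were not tested, since 2 against 2 libraries allow an exact permutation p of 0.333 at the lowest. The rule for named genes took the members, the genes of each list that were called in a comparison, up to 4 of its genes with the highest mean FPKM, genes listed at 0 in all libraries, and the 5 most like the members. Other genes, such as those named for being highest in M-LMSCs, were chosen after their values were seen.

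Replicate numbers 1 and 2 occur at each stage. Deviations from stage means correlated between libraries with the same number at 0.238, 0.307 and 0.491, so the numbers were taken as pairing the libraries, from the data and not from the labels, and values with the replicate block are given where they change a call. Depth was estimated from low FPKM values of genes with 1 transcript, of which at least 96.77% came within 0.1 of whole fragments, and it limits the precision of genes near 1 FPKM. Copies were searched with blastn 2.17.0 (95% identity over 200 bases). The reference is of another strain than FVB. Alternatives were another pseudocount, no filter, other scalings, other sample sets, the block and each library left out. The fit was tested on simulated data with 200 changed genes. Some genes of the lists are not reported here.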

Additional observations from a re-analysis of the deposited data

Results flagged for a closer look

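Only the members and the genes of the other 19 lists are considered here. For 4 of them the PM-LMSC pair lay on one side of the A-LMSC pair and the M-LMSC pair on the other. The share of all genes with this order was not computed, and with 2 libraries per stage it can arise by chance. This difference in direction was not tested. Coro1a was lower in PM-LMSCs (0.536 and 0.438 FPKM) and higher in M-LMSCs (0.817 and 0.850 FPKM) than in A-LMSCs (0.565 and 0.640 FPKM), a log2 difference of 0.30 between M-LMSCs and PM-LMSCs. Fcgr1, the high-affinity IgG receptor that pairs with Fcer1g, did the same at a lower level, with 0.131 and 0.137 FPKM in A-LMSCs, 0.0927 and 0.0431 in PM-LMSCs, 0.518 and 0.578 in M-LMSCs, and a log2 difference of 0.54. The protease gene Ctsl, at 291 to 374 FPKM, had a log2 difference of 0.26. The lymphocyte kinase gene Lck went the opposite way, higher in PM-LMSCs and lower in M-LMSCs, with a log2 difference of -0.13 and no value above 0.158 FPKM.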

How the results depend on the processing

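M-LMSCs were higher than A-LMSCs and PM-LMSCs for all 7 tested members under each of the alternatives run. The replicate block raised the number of members called to 6 against A-LMSCs and 2 against PM-LMSCs, and the number of genes called to 403 and 43, and to 30 for PM-LMSCs against A-LMSCs; among the members it changed no other call. Over all alternatives, the limma adjusted p against A-LMSCs ran from 0.0157 to 0.448 for Tyrobp, 0.0157 to 0.507 for Fcer1g, 0.0288 to 0.740 for Lyz2, 0.0250 to 0.668 for Laptm5, 0.0275 to 0.630 for Cd14, 0.0456 to 0.630 for Cd68 and 0.122 to 0.922 for Csf1r, and against PM-LMSCs from 0.0225 to 0.347 for Tyrobp and 0.0472 to 0.492 for Fcer1g. Genes called came to 3 (M-LMSCs against A-LMSCs) and 1 (PM-LMSCs against A-LMSCs) without the filter, and to 1 and 21 with only the libraries compared. With each library left out, where the lone library of a stage is assumed to vary like the others, they ranged from 2 to 90 for M-LMSCs against A-LMSCs (85 and 90 without M-LMSC replicate 1 or 2), from 2 to 25 against PM-LMSCs (18 and 25 without the same libraries) and from 1 to 2 for PM-LMSCs against A-LMSCs, and 0 members were called. For PM-LMSCs against A-LMSCs the log2 difference changed sign with the PM-LMSC library left out (replicate 2 for Lyz2, Tyrobp and Cd68, replicate 1 for Fcer1g and Laptm5), and for Cd68 also without A-LMSC replicate 2, with ranges from -0.86 to 0.41 for Lyz2, -0.39 to 0.13 for Tyrobp, -0.11 to 0.61 for Fcer1g, -0.24 to 0.34 for Laptm5 and -0.14 to 0.14 for Cd68. Quantile normalization gave -0.0061 for Laptm5. From log2(FPKM + 1) means, the ratio of M-LMSCs to A-LMSCs had a median of 1.80, a lowest value of 1.14 and a highest of 2.82, and the lowest against PM-LMSCs was 1.23. The highest ratio was 8.29 from number 1 libraries alone against A-LMSCs and 6.70 from number 2 libraries alone against PM-LMSCs (9 members, Cd52 being listed at 0 in PM-LMSC replicate 2). With each library left out, the ratio to A-LMSCs ranged from 2.19 to 2.83 in its median, from 1.30 to 1.42 in its lowest and from 4.84 to 7.15 in its highest value, and that to PM-LMSCs from 1.65 to 3.16, from 1.23 to 1.68 and from 2.604 to 7.97, the values without PM-LMSC replicate 1 again over 9 members. The cause of these shifts was not tested. Depth limits the 3 members under the filter, above all Cd52.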
